A study of Mus musculus with 3 samples.

Results

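The HoxB cluster genes, Hoxb1 to Hoxb9 and Hoxb13, are 10 of the 24421 genes counted by RNA-Seq in mouse ES cells with or without knockdown of the nucleoporin NUP153. They were chosen by gene symbol, and all 10 symbols were in the counts of each of the 3 libraries. A read was seen for all 10 genes in at least 1 library, and 7 of them (Hoxb2, Hoxb3, Hoxb4, Hoxb6, Hoxb7, Hoxb9 and Hoxb13) averaged 10 or more reads per library.

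Hox genes encode homeodomain transcription factors that give cells their position along the head-to-tail axis of the embryo. In each cluster the genes lie in the order in which they are used along that axis, with the genes of the anterior paralog groups at the 3′ end of the cluster and the posterior ones at the 5′ end. In undifferentiated ES cells the clusters are known for Polycomb repression with both activating and repressive histone marks at their promoters, and retinoic acid turns the 3′ HoxB genes on first.

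The cells were female EL16.7 mouse ES cells, of the background labelled F2:129S1/CastEiJx 129S1, which were kept undifferentiated with LIF on γ-irradiated mouse embryonic fibroblasts (MEFs) from Tg(DR4)1Jae/J mice. All 3 cultures received shRNA lentivirus and then 2 days of selection in 2 μg/ml puromycin. The control, labelled wild type, received a scramble shRNA, and KD-1 and KD-2 each received a different NUP153-specific shRNA. Each condition is 1 library of total RNA depleted of ribosomal RNA, and no step that removed the MEFs before extraction is described for RNA-Seq, so each library is a bulk sample in which fewer cells of a type and less RNA per cell cannot be told apart.

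Reads on genes numbered between 69839336 and 85258834 per library. Nup153, the targeted gene, had 27870, 16451 and 11126 reads in control, KD-1 and KD-2, and it fell by 0.99 (SE 0.07, FDR 2.98e-47) in KD-1 and by 1.43 (SE 0.07, FDR 1.78e-96) in KD-2 on the log2 scale. A gene is described as called, or as having risen or fallen, where its FDR was under 0.05 and its fold change exceeded 1.5 in edgeR's likelihood ratio test with a fixed dispersion of 0.001, which stands in for replicates. There is no replicate within a condition, so that test compares libraries and not conditions, and intervals given for single libraries cover counting error only. All 14 pluripotency markers were read in every library, with a summed level of 5340 CPM (reads scaled to library size after upper-quartile normalization) in control, 5830 with shRNA-1 (KD-1) and 3950 with shRNA-2 (KD-2). All 18 fibroblast markers were also read in every library, with sums of 2390, 1340 and 4210.

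The cluster lies on the plus strand of chromosome 11 (GRCm38, the mm10 build of the authors' mapping), from Hoxb13 at the 5′ end to Hoxb1 at the 3′ end, at chr11:96194316-96368256. Hoxb9 to Hoxb1 take up 96.8 kb, and 74 kb separate Hoxb13 from Hoxb9. All of these genes encode the homeodomain, whose recognition helix reads the bases of DNA, and this helix is among the most conserved stretches of the family. The 30 coding bases of the helix lie in exon 2 of 2 of the transcript used for each gene, and they are shown to compare the genes, with capitals marking each base that differs from the one most common among the 10.
Hoxb1: tggttccagaaccggcgcatgaagCAgaag
Hoxb2: tggttccagaaccgAcgcatgaaACACaag
Hoxb3: tggttccagaaccgTcgcatgaagtACaag
Hoxb4: tggttccagaaTcggcgcatgaagtggaaA
Hoxb5: tggttccagaaccgTcgcatgaagtggaag
Hoxb6: tggttTcagaaccggcgcatgaagtggaaA
Hoxb7: tggttTcagaaccggcgcatgaagtggaaA
Hoxb8: tggttccagaaTcggAgAatgaagtggaaA
Hoxb9: tggttTcagaaccggcgGatgaaAATgaag
Hoxb13: tggttTcagaaccgCcgGGtCaagGAgaag
Hoxb5 differed at 1 base and Hoxb13 at 7, more than any of the others. Hoxb6 and Hoxb7 have the same letters. Few whole reads of 50 bases could be shared between paralogs. Hoxb1, Hoxb7, Hoxb8 and Hoxb13 share no run of 50 bases with transcripts of another gene, while 0.437% of runs in Hoxb4 were shared with other genes, Hoxa6 among them, as were 0.839% in Hoxb6 and 0.233% in Hoxb9, with Hoxc9 among the genes. An antisense transcript, Hoxb3os, which is not a row of the counts, overlaps 52.9% of the exon bases of Hoxb3 and 27.3% of those of Hoxb2, and Hoxb5os overlaps 3.59% of those of Hoxb5. The strand setting of the counting is not given in the sources used here, so within these overlaps reads of the genes and of their antisense partners cannot be told apart.

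The cluster also holds microRNA genes that are known to act on Hox transcripts. Mir196a-1 lies between Hoxb13 and Hoxb9, at chr11:96265164-96265265, and Mir10a between Hoxb5 and Hoxb4, at chr11:96317165-96317274. Their mature 5p sequences, from RefSeq (GRCm38.p6), are shown because sites for them stand in the transcripts described below, with the seed, bases 2 to 8, in capitals.
mmu-miR-196a-5p: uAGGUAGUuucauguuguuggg
mmu-miR-10a-5p: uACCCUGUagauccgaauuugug
The 7-base match to the seed of miR-196a-5p, ACTACCT, is in the 3′ UTR of 6.8% of 21153 genes and of 3 of the 10 HoxB genes, Hoxb1, Hoxb6 and Hoxb7. That of miR-10a-5p, ACAGGGT, is in 12.9% of genes and in 1 of the 10, Hoxb3. The sites are printed on the plus strand with the seed match in capitals.
Hoxb3, site for miR-10a-5p, chr11:96347287-96347309: tgacttaacgtgaaaACAGGGTa
Hoxb1, site for miR-196a-5p, chr11:96368205-96368226: tctttgtatctgcaACTACCTc
Hoxb6, site for miR-196a-5p, chr11:96301373-96301394: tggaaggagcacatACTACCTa
Hoxb7, site for miR-196a-5p, chr11:96289784-96289805: ctgtaaaaaaatatACTACCTa
A match is a description of the letters and not of binding. Only these exact 7 bases were searched for, so the other genes may hold sites that differ, as by a G:U pair. Total RNA libraries count the hairpin transcript and not the mature microRNA. Mir196a-1 had 11, 18 and 6 reads in control, KD-1 and KD-2 and was not called in any comparison, and Mir10a had 0 reads in all 3 libraries, where a count of 0 allows up to 3 reads.

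HoxB transcripts were scarce in all 3 cultures. The 10 genes together had 116, 190 and 286 reads in control, KD-1 and KD-2, or 1.66, 2.32 and 3.8 CPM. The sum was 1.4 times control in KD-1 (95% interval 1.1 to 1.78) and 2.29 times control in KD-2 (1.84 to 2.87). Without Hoxb13 the ratio of KD-1 to control was 1.21, with an interval of 0.945 to 1.56 that includes 1. Per length, the highest level of any HoxB gene was 0.473 RPKM, for Hoxb7 in KD-2, at percentile 47.8 of the 23376 genes with a known exon length, so that every HoxB gene lay below the median gene in every library.

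**Figure D1:**
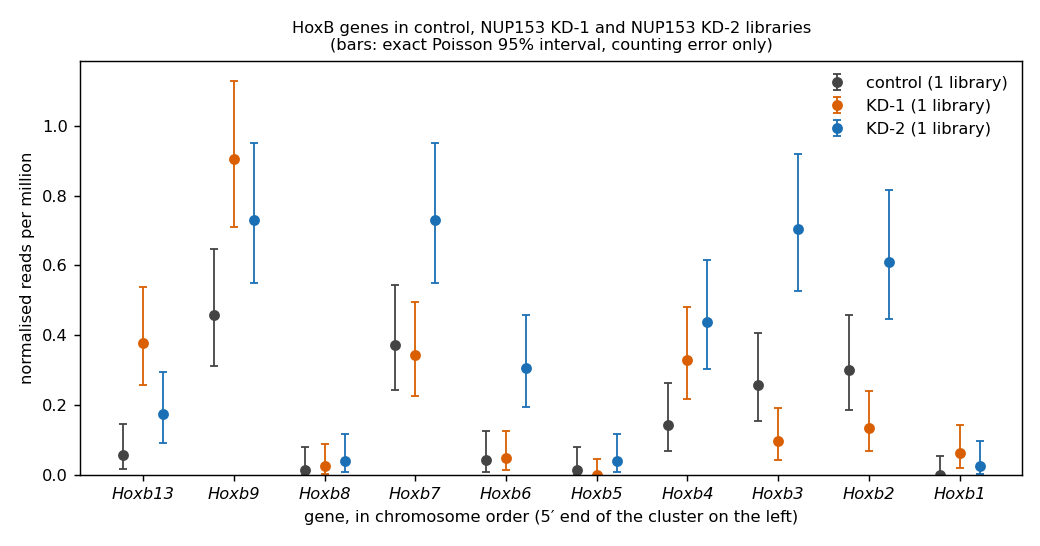
CPM (vertical axis) of each HoxB gene in chromosome order (horizontal axis) in the control, KD-1 and KD-2 libraries, with 1 point per library and exact Poisson 95% intervals as bars. Hoxb9 and Hoxb13 are highest in KD-1, while Hoxb2, Hoxb3, Hoxb6 and Hoxb7 are highest in KD-2.

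In control, the order of levels per length was Hoxb7 at 0.241 RPKM, Hoxb9 at 0.178, Hoxb2 at 0.0861, Hoxb3 at 0.0606, Hoxb4 at 0.0558, Hoxb13 at 0.0259, Hoxb6 at 0.0219, Hoxb8 at 0.00543 and Hoxb5 at 0.00514, with Hoxb1 at 0. Of these steps, the one from Hoxb9 to Hoxb2 exceeded counting error, and other neighbours did not differ beyond it. In KD-1 the order was led by Hoxb9 at 0.351 RPKM, Hoxb7 at 0.221, Hoxb13 at 0.172 and Hoxb4 at 0.128, and the steps that exceeded counting error were those from Hoxb9 to Hoxb7 and from Hoxb4 to the next gene, Hoxb2, at 0.0385 RPKM. In KD-2 it was led by Hoxb7 at 0.473 RPKM and Hoxb9 at 0.284, each above the next gene beyond counting error. Hoxb2, Hoxb4, Hoxb3 and Hoxb6 followed at 0.175, 0.171, 0.166 and 0.156 RPKM and did not differ from each other beyond it.

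The posterior genes Hoxb9 and Hoxb13 took up 31% of all HoxB reads in control (exact 95% interval 22.8 to 40.3), 55.3% in KD-1 (47.9 to 62.5) and 23.8% in KD-2 (19 to 29.1). The anterior genes Hoxb1 to Hoxb3 took up 33.6% in control (25.1 to 43), 12.6% in KD-1 (8.26 to 18.2) and 35.3% in KD-2 (29.8 to 41.2). The intervals of KD-1 overlap neither those of control nor those of KD-2 for both groups, while those of control and KD-2 overlap.

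**Figure D2:**
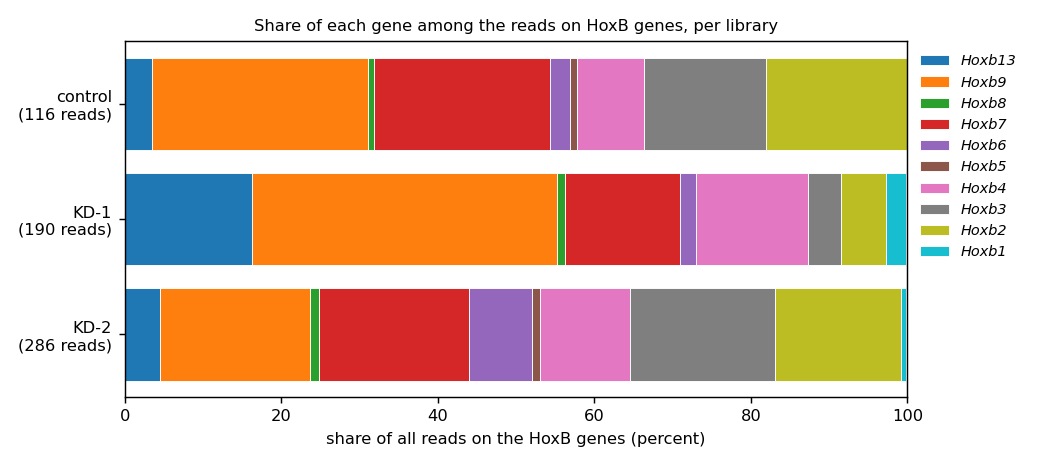
Share of each gene among all reads on HoxB genes (horizontal axis, percent) in the control, KD-1 and KD-2 libraries (1 bar each, genes stacked in chromosome order from Hoxb13). Hoxb9 and Hoxb13 make up 55.3% of the KD-1 bar, against 31% in control and 23.8% in KD-2.

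KD-1 and KD-2 were each compared to control, to describe how HoxB reads differed between these libraries, and both comparisons share the control library. In KD-1, 2 of the 10 genes rose, the posterior genes Hoxb9 and Hoxb13, and none fell, where 6.9% of all 24421 genes were called, 3.98% higher and 2.92% lower. In KD-2, 5 of the 10 rose, Hoxb2, Hoxb3, Hoxb4, Hoxb6 and Hoxb7, and none fell, where 16.2% of all genes were called, 10.3% higher and 5.93% lower. Among the 5647 genes within the range of the HoxB genes' mean reads, 5.86% were called higher and 1.75% lower in KD-1, and 8.82% higher and 4.06% lower in KD-2. The median log2 fold change of the 10 genes was 0.44 in KD-1 (0.34 with genes at 0 in a library set at their bound), beside 0.02 for all genes with a read. In KD-2 it was 1.41 (1.38), beside 0.00. These medians include Hoxb1, Hoxb5 and Hoxb8, whose reads are too few for a fold in most comparisons. Over the 7 genes averaging 10 or more reads, the median was 0.18 in KD-1, with 4 of 7 above 0, and 1.45 in KD-2, with 7 of 7 above 0. With a dispersion of 0.04 in place of 0.001, none of the 10 was called against control in either knockdown. The share of all genes called at 0.04 was not computed.

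The KD-1 library was also compared directly to KD-2. Hoxb2, Hoxb3, Hoxb6 and Hoxb7 were lower in KD-1 and Hoxb13 was higher, so that 4 of 10 were called lower, where 10.6% of all genes were, and 1 higher, where 8.36% were (19% in both directions). Among genes within the range of the HoxB genes' mean reads, 7.9% were called lower and 7.95% higher. The median of all genes averaging 10 or more reads was 0.12 in this comparison, and Hoxb13 was no longer called after scaling by DESeq2's size factors (1.02, FDR 0.0635) or by library totals (0.96, FDR 0.0882).

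**Figure D3:**
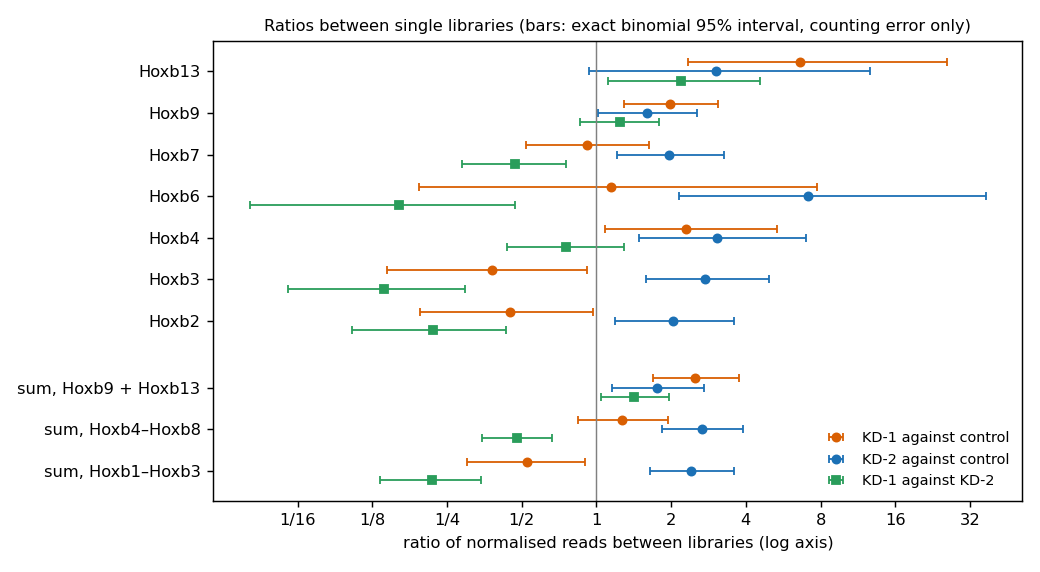
Ratios of normalised reads between single libraries (horizontal axis, log scale) for the 7 HoxB genes averaging 10 or more reads and for the summed anterior, central and posterior genes, with exact binomial 95% intervals as bars. For Hoxb2, Hoxb3 and the anterior sum, the KD-1 ratio lies below 1 and the KD-2 ratio above it, while for the posterior sum both lie above 1.

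Among the anterior genes, Hoxb1, which patterns the hindbrain and responds early to retinoic acid, had 0 reads in control, 5 in the KD-1 library and 2 in the KD-2 library. The interval of the ratio of KD-1 to control began at 0.782, below 1, and the gene was not called (FDR 0.0613). The count in KD-2 was too low for a fold.

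Hoxb2, another hindbrain gene, had 21 reads in control, 11 in the KD-1 library and 46 in the KD-2 library. The KD-2 library was the highest and the KD-1 library the lowest. In KD-2 it rose by 1.02 (SE 0.38, FDR 0.0172), a ratio of 2.03 (1.19 to 3.59). In KD-1 its ratio to control was 0.447 (0.195 to 0.97) and it was not called (FDR 0.108). Directly between the knockdowns its log2 fold change was -2.17 (SE 0.48, FDR 2.1e-06).

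Hoxb3, which acts in the hindbrain and pharyngeal region, had 18, 8 and 53 reads in control, KD-1 and KD-2. It held the same order of libraries as Hoxb2. In KD-2 it rose by 1.45 (SE 0.39, FDR 0.000415), a ratio of 2.73 (1.58 to 4.96), while in KD-1 its ratio was 0.379 (0.143 to 0.917, FDR 0.078). KD-1 against KD-2 gave -2.83 (SE 0.54, FDR 1.71e-09), the largest difference between the knockdowns among the HoxB genes that were called. As described above, Hoxb2 and Hoxb3 are the genes that Hoxb3os overlaps.

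The summed reads of Hoxb1 to Hoxb3 were 39, 24 and 101 in control, KD-1 and KD-2. The sum in KD-1 was 0.525 times control (0.302 to 0.896) and in KD-2 it was 2.4 times control (1.65 to 3.57). The fibroblast markers moved in the same directions: their sum was 0.558 times control in KD-1 and 1.76 times in KD-2, with 10 of 18 called lower in KD-1, 15 of 18 called higher in KD-2, and 18 of 18 lower in the direct comparison of KD-1 to KD-2. None of them was at 0 in any library, the fewest reads being 56, and without Col3a1, the one with the most reads, the sums were 0.636 and 1.67 times control. Their part in the anterior HoxB values was not tested.

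Among the central genes, Hoxb4, which is known for a role in the self-renewal of blood stem cells, had 10 reads in control, 27 in the KD-1 library and 33 in the KD-2 library. Both knockdown libraries were above control and close to each other. In KD-2 it rose by 1.60 (SE 0.51, FDR 0.00292), a ratio of 3.06 (1.48 to 6.97), and in KD-1 the ratio was 2.3 (1.08 to 5.34) without a call (FDR 0.0806). KD-1 and KD-2 were at a ratio of 0.752 (0.435 to 1.29).

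Of the 10 genes, 3 (Hoxb1, Hoxb4 and Hoxb8) had a promoter entry in RefSeq (GRCm38.p6). That of Hoxb4 is shown, as the gene called in KD-2 for which an entry was found: the 250 bases before its start on the plus strand, chr11:96318017-96318266, with capitals marking a match to AGGTCA, the core motif bound by nuclear receptors such as the retinoic acid receptors, searched on both strands.
Hoxb4: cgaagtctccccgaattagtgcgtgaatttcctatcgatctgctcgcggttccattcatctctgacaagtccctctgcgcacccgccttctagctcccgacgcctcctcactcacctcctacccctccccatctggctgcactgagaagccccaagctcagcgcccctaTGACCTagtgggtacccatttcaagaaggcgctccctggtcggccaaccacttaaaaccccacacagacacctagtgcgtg
This motif is in 14% of 32851 promoters of that length. TGATNNAT, a motif of Hox and Pbx proteins, was found in the window of Hoxb1 and of Hoxb8 and in 7.68% of promoters, and TATAAA was found in that of Hoxb8 and in 12.4%. The window of Hoxb4 holds 14 CpG, where the median promoter holds 6.

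Hoxb5, which acts in the gut and the thoracic region, had 1, 0 and 3 reads in control, KD-1 and KD-2, and Hoxb8, known from limb and blood development, had 1, 2 and 3. These counts are at or under the 3 reads that a count of 0 allows, so that no fold is given, and a difference was not detectable at this depth.

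Hoxb6, a gene of the trunk, had 3 reads in control, 4 in the KD-1 library and 23 in the KD-2 library. Only the KD-2 library stood out. It rose in KD-2 by 2.78 (SE 0.83, FDR 0.00028), a ratio of 7.12 with a wide interval (2.15 to 37), and in KD-1 its ratio was 1.14 (0.193 to 7.77). KD-1 against KD-2 gave -2.60 (SE 0.75, FDR 0.000204).

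Hoxb7, its neighbour, had 26, 28 and 55 reads in control, KD-1 and KD-2. It too was high in KD-2 alone, with a rise of 0.97 (SE 0.35, FDR 0.0121) and a ratio of 1.96 (1.21 to 3.26). In KD-1 the ratio was 0.919 (0.519 to 1.63), and KD-1 against KD-2 gave -1.09 (SE 0.34, FDR 0.00288). Hoxb6 and Hoxb7 both carry the miR-196a-5p match printed above. Over Hoxb4 to Hoxb8 the sums were 41, 61 and 117 reads, or 1.27 times control in KD-1 (0.841 to 1.94) and 2.65 times in KD-2 (1.84 to 3.88). In KD-1 the fibroblast sum was 0.558 times control and the pluripotency sum 1.09 times control. In KD-2 these marker sums were 1.76 and 0.74 times control. Their part in the rise of Hoxb4, Hoxb6 and Hoxb7 was not tested.

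Among the posterior genes, Hoxb9, which acts in the thoracic skeleton and mammary gland, had 32 reads in control, 74 in the KD-1 library and 55 in the KD-2 library, the most reads of any HoxB gene over the libraries. Both knockdowns were above control. In KD-1 it rose by 0.98 (SE 0.31, FDR 0.00829), a ratio of 1.97 (1.29 to 3.09). In KD-2 the ratio was 1.6 (1.01 to 2.55) and the gene was not called (FDR 0.0858), though it was after scaling by library totals (0.83, FDR 0.027) and among genes averaging 10 or more reads (0.73, FDR 0.0396). KD-1 and KD-2 did not differ beyond counting error, at a ratio of 1.24 (0.861 to 1.79).

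Hoxb13, the most 5′ gene, which is known from the tail bud and the prostate, had 4 reads in control, 31 in the KD-1 library and 13 in the KD-2 library. The KD-1 library was the highest, and the intervals of KD-1 (0.257 to 0.537 CPM) and KD-2 (0.092 to 0.295 CPM) overlapped. In KD-1 it rose by 2.69 (SE 0.73, FDR 0.000143), a ratio of 6.61 (2.34 to 25.8), and in KD-2 the ratio was 3.02 (0.932 to 12.7) without a call (FDR 0.0878). KD-1 against KD-2 gave 1.12 (SE 0.47, FDR 0.0348), a ratio of 2.19 (1.11 to 4.56), a call that the scalings named above and a dispersion of 0.01 (FDR 0.104) end. Over Hoxb9 and Hoxb13 the sum was 36, 105 and 68 reads, or 2.49 times control in KD-1 (1.69 to 3.74) and 1.75 times in KD-2 (1.15 to 2.7). The fibroblast sum, at 0.558 times control in KD-1 and 1.76 times in KD-2, stands beside these values, and its part in them was not tested.

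With KD-1 and KD-2 set as 1 group, the quasi-likelihood test of edgeR against control takes its spread from these libraries alone and has 1 residual degree of freedom. It called 0 of the 10 HoxB genes, and 0.0189% of 21164 genes. An unadjusted p under 0.05 was found for 1 HoxB gene, Hoxb13, with a log2 fold change of 2.25, and for 1.38% of all genes. The Wald test of DESeq2 called 0 of the 10 and 0.00945% of all genes, and an unadjusted p under 0.05 was found for 0 of the 10 and for 0.387% of all genes.

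The other Hox clusters were described in the same way, beside the shares of all genes called, 3.98% higher and 2.92% lower in KD-1, and 10.3% higher and 5.93% lower in KD-2. Of 11 HoxA genes, 0 were called in KD-1 and 8 rose in KD-2, with a summed level of 15.5, 15.3 and 30.8 CPM in control, KD-1 and KD-2. Of 9 HoxD genes, 0 were called in KD-1 and 3 rose in KD-2, with sums of 26.4, 24.8 and 40.1. Of 9 HoxC genes, 1 fell in KD-1 and 1 rose in KD-2, with sums of 2.92, 3.58 and 3.89. The HoxB sum, at 1.66 in control, was the lowest of the 4 clusters in control, with these values not set per length, and in KD-2 it was close to the HoxC sum. Directly between the knockdowns, the median log2 fold change of genes averaging 10 or more reads was -1.09 over 7 HoxB genes, -0.94 over 9 HoxA genes, -0.64 over 7 HoxD genes and -0.05 over 6 HoxC genes, beside -1.63 over the 18 fibroblast markers, 0.40 over the 14 pluripotency markers and 0.12 over all genes. That the HoxB genes differ from the other clusters was not tested.

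**Figure D4:**
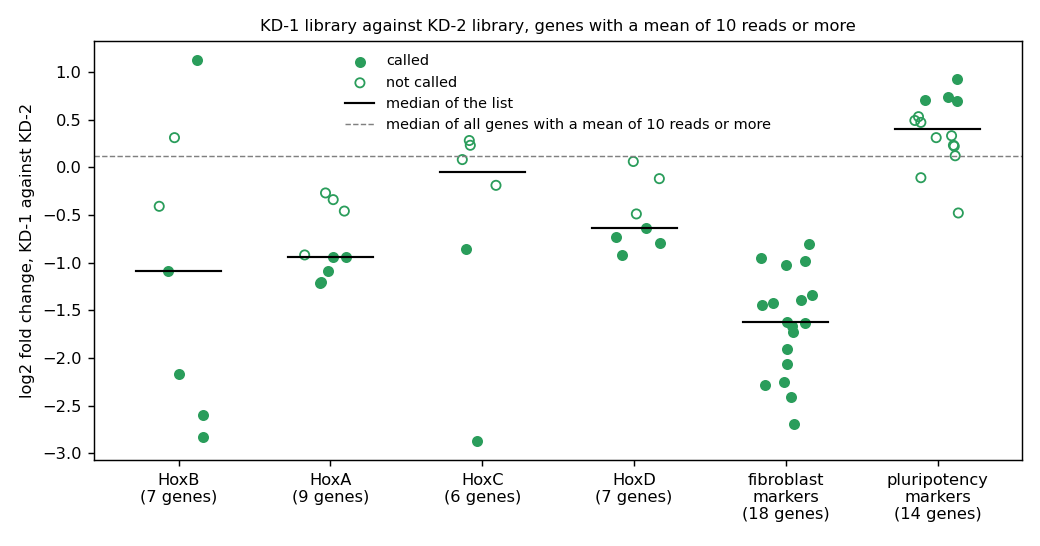
Log2 fold change of KD-1 against KD-2 (vertical axis) for genes averaging 10 or more reads in the 4 Hox clusters and in the fibroblast and pluripotency marker lists; each point is a gene, filled where called, with black lines at the medians and a dashed line at 0.12, the median of all genes. Hoxb13 is at 1.12, while Hoxb3, Hoxb6 and Hoxb2 lie between -2.83 and -2.17, and the fibroblast markers are all below 0.

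Of 14 listed noncoding transcripts in or near the cluster, 5 were rows of the counts, and 1 of them, Gm11529, lies beyond Hoxb1 at chr11:96448323-96464547. Gm53, which lies between Hoxb13 and Hoxb9 at chr11:96251105-96264868, had 46, 68 and 75 reads in control, KD-1 and KD-2 and was not called in any comparison. Hoxb5os, the antisense partner of Hoxb5, is named after its values were seen: it had 3, 2 and 11 reads, and it was called lower in KD-1 against KD-2 (-2.50, SE 1.01, FDR 0.0154), the direction of the neighbouring Hoxb6 and Hoxb7.

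The counts of the lists that follow stand beside the same shares of all genes called, 3.98% and 2.92% in KD-1, and 10.3% and 5.93% in KD-2. Of 15 genes that flank the cluster, 4 rose in KD-1 and none fell. Ttll6, which encodes a tubulin glutamylase and lies on the 5′ side of Hoxb13, at chr11:96133786-96165451, had 48, 124 and 75 reads in control, KD-1 and KD-2. In KD-1 it rose by 1.14 (SE 0.25, FDR 4.03e-05), and in KD-2 its value was 0.54 (FDR 0.109). Calcoco2, an autophagy receptor, rose in KD-1 by 0.59, Osbpl7, a lipid transfer protein, by 0.70, and Tbx21, a T cell transcription factor, by 1.11. In KD-2, Copz2, a coat protein of Golgi vesicles, rose by 0.89 and none fell. Between KD-1 and KD-2, Calcoco2 (1.00) and Ttll6 (0.60) were higher and Copz2 (-0.92) lower. The other 10, Skap1, Snx11, Cbx1, Nfe2l1, Mrpl10, Gip, Ube2z, Snf8, Igf2bp1 and Atp5g1, were not called in any of the 3 comparisons, and the median of the 15 was 0.05 for KD-1 against control and 0.06 for KD-2.

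Hox proteins bind DNA together with the PBC and MEIS families. Of 9 of these cofactor genes, 2 rose and 1 fell in KD-1 and 1 rose in KD-2. Meis2, called in both knockdowns, had 363, 726 and 645 reads in control, KD-1 and KD-2, with log2 fold changes of 0.77 (FDR 1.95e-10) and 0.72 (FDR 1.58e-09). Of 22 Cdx and retinoic acid pathway genes, some of which act upstream of Hox genes in the embryo, KD-1 had 3 and KD-2 had 5 that rose, and none fell. Cdx2, a caudal homeobox gene called in both, had 6, 25 and 24 reads, with log2 fold changes of 1.81 (FDR 0.0132) and 1.87 (FDR 0.00474). Of the lists that follow, Kdm6b, Utf1, Eomes and Msgn1 also rose in both knockdowns. All of these genes are named after their values were seen.

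Of 19 Polycomb genes, whose products repress Hox clusters, 1 rose in KD-1, while 4 rose and 3 fell in KD-2. Of 10 trithorax and H3K27 demethylase genes, which act in the opposite way, 2 rose in KD-1, and 1 rose and 2 fell in KD-2. Of 7 genes of CTCF and cohesin that were in the counts, 0 were called in KD-1 and 2 fell in KD-2. Of 12 early mesoderm and neural markers, 2 rose in each knockdown and none fell. Of the 14 pluripotency markers, 1 rose in KD-1, and 1 rose and 3 fell in KD-2.

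Outside of the Hox clusters, 16634 genes averaging 10 or more reads were ranked by how near their log2 fold changes in KD-1 and KD-2 lay to those of Hoxb13 and of Hoxb9, as a Euclidean distance over these 2 values. Nearest to Hoxb13 were Gm10471 at 0.038, with 3, 23 and 10 reads in control, KD-1 and KD-2, then Vmn2r18, a vomeronasal receptor gene, at 0.200 and Gm12794 at 0.251. Nearest to Hoxb9 were Cxcl2, a chemokine gene, at 0.019, Gab2, a signalling adaptor gene, at 0.025 and 1700061G19Rik at 0.026. Within a distance of 0.1 there was 1 gene for Hoxb13 and there were 24 for Hoxb9. These distances are smaller than the SE of the log2 fold changes, 0.73 and 0.79 for Hoxb13 and 0.31 and 0.33 for Hoxb9. The order of the genes is therefore within counting error.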

How the data were processed

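RNA-Seq was deposited for 3 libraries of mouse ES cells, 1 per condition. The authors trimmed reads with Trim Galore (0.4.1), mapped them with TopHat (2.1.1) to mm10, and deposited raw counts per gene. The methods name featureCounts for reads with a mapping quality above 30, and the submitters' processing notes name HTSeq. The 5 summary lines were left out: reads without a feature were 21.51 to 24.08% and ambiguous reads 1.454 to 1.646% of all reads.

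Counts of all 24421 genes were fitted together in edgeR 4.0.16 (R 4.3.3) with upper-quartile normalization, a prior count of 0.125 and a fixed dispersion of 0.001, since the spike-in dispersion of the study is not given in the sources used here. FDR was adjusted over all genes. The group test used TMM normalization and genes with a read, with DESeq2 1.42.0 as an alternative. KD-1 and KD-2 are separate cultures with different shRNAs. Ratios have exact conditional binomial intervals of 95%. RPKM used exon lengths of GENCODE M21. The tests were checked on simulated data.

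All 10 HoxB genes, Nup153, counts of each list, noncoding and flanking genes averaging 10 or more reads, Hox genes called in both knockdowns, and the 3 nearest genes of Hoxb13 and Hoxb9 were named by rule. The members and lists were chosen with earlier results of these data known. The alternatives were TMM, DESeq2's size factors, library totals, dispersions of 0.01, 0.04 and 0.16, a minimum mean of 10 reads, a prior count of 2, a fold change above 2, and sums without Hoxb9 or Hoxb13.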

Additional observations from a re-analysis of the deposited data

Results flagged for a closer look

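The KD-1 and KD-2 libraries differed from each other in 5 HoxB genes in edgeR's likelihood ratio test, with log2 fold changes of KD-1 against KD-2 of -2.17 for Hoxb2 (FDR 2.1e-06), -2.83 for Hoxb3 (FDR 1.71e-09), -2.60 for Hoxb6 (FDR 0.000204), -1.09 for Hoxb7 (FDR 0.00288) and 1.12 for Hoxb13 (FDR 0.0348). Of all 24421 genes, 19% were called in this comparison, 10.6% lower and 8.36% higher in KD-1. The call of Hoxb13 was lost after scaling by DESeq2's size factors (FDR 0.0635) or library totals (FDR 0.0882) and at a dispersion of 0.01 (FDR 0.104). That of Hoxb7 was lost at a dispersion of 0.04 (FDR 0.397), and none of the HoxB genes was called at 0.16. Both cultures are labelled NUP153 knockdown and have 1 library each. The test compares these libraries, and the fibroblast marker sum of KD-1 was 0.318 times that of KD-2.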

How the results depend on the processing

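The number of HoxB genes called followed the fixed dispersion. For KD-1 against control it was 2 at 0.001, 1 at 0.01, where Hoxb9 was lost, and 0 at 0.04 and at 0.16, and with a fold change above 2 it was 1. For KD-2 against control it was 5 at 0.001, 3 at 0.01, where Hoxb2 and Hoxb7 were lost, and 0 at 0.04 and at 0.16. It was 4 with a fold change above 2, where Hoxb7 was lost, and 6 under library totals and under the minimum mean of 10 reads, where Hoxb9 was gained. For KD-1 against KD-2 it was 5 at 0.001, 4 at 0.01, 3 at 0.04 and 0 at 0.16. No fitted value changed its direction under any setting that was run. Of 261 values of single genes under these settings, 230 kept their side of the threshold, 29 lost the call and 2 gained one. Library totals moved the median of all genes in KD-2 against control to 0.14. The summed HoxB ratio was between 1.18 and 1.4 in KD-1 and between 2.26 and 2.55 in KD-2 over the scalings and the sums without Hoxb9 or Hoxb13, and the interval of KD-1 without Hoxb9 (0.882 to 1.58) includes 1. Hoxb1, Hoxb5 and Hoxb8 have no value under the minimum mean of 10 reads. Leaving out KD-1 or KD-2 from the group test leaves no residual degrees of freedom, so no test was run. No paired analysis was possible because each condition has 1 library.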
